A study of Mus musculus with 30 samples.

Results

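Fc receptors are cell surface proteins that bind the constant part of antibodies. The genes described here are 7 of the 23013 gene rows of a single-cell RNA table of 8 mouse organs, and they were chosen by name: the IgG receptors Fcgr1, Fcgr2b, Fcgr3 and Fcgr4, the signalling adaptors Fcer1g and Tyrobp, and the neonatal Fc receptor Fcgrt. Gene rows carry Entrez numbers, and all 7 were matched to symbols.

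Gene expression was measured by Seq-Well, in which single cells and barcoded beads are paired in small wells, in male DBA1/J mice that were 8 to 12 weeks old when housed. The CIA (collagen-induced arthritis) mice S1, S2, S6 and S7 had received 100 µg of bovine collagen II in complete Freund's adjuvant at the tail base and a booster in incomplete adjuvant on day 20, and reached arthritis scores of 8, 8, 3 to 4 and 3. Controls (H3, H4, H6, H7) scored 0 and, by the methods, had received buffered saline in the same way. Blood was taken from all 4 controls and from S2, S6 and S7, and lymph nodes from all 4 controls and from S1, S2 and S7, while joint (H3 and S1), lung, muscle, skin, spleen and thymus (H6 and S1) came from 1 mouse of each state. By the methods, tissues had been frozen and thawed, joint, lung, muscle and skin had been digested with enzymes, and blood stands for mononuclear cells from a density gradient with lysis of red cells. Collagen and adjuvant were given together, so the part of each in a difference between states cannot be told apart.

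The unit of every level below is UPM, the units of a gene in the deposited smoothed signal scaled to 1000000 units of all genes, summed over the barcodes of a mouse and organ. Such sums do not separate fewer cells of a type from less RNA per cell. The 30 libraries held 27 to 934 barcodes and 217494 to 7886790 units, and the blood library of H3 was the smallest on both. In 19 libraries only 5.25% to 21.3% of the genes above 0 had a largest value of 1, against 37.1% to 58.1% in the other 11. This is read here as removal of most of the rarest genes from the 19, a step that labels and methods do not state for single libraries. A gene without signal is therefore called listed at 0 and not absent. The lymph node libraries all belonged to these 19, as did those of the blood of H7, S6 and S7. Globin and other erythroid genes made up 35799 to 516413 UPM of the blood sums in spite of the red cell lysis. In the muscle of H6, 2 of 7 skeletal muscle markers were above 0 (Ckm, Myh4, Myh1, Tnnt3 and Actn3 were listed at 0), against 7 of 7 in S1. In the lung of S1 3 of 6 epithelial markers were above 0 (Sftpa1, Sftpb and Ager were listed at 0). Skin, thymus and spleen held all 7 keratinocyte, all 7 thymocyte and all 10 B cell markers of the lists used here in both mice.

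In mice Fcgr1, Fcgr3 and Fcgr4 encode activating receptors for IgG that cannot signal alone. They pair with the common gamma chain, the product of Fcer1g, whose tyrosine motif recruits the kinase Syk once antibody complexes cross-link the receptors, and myeloid cells answer with phagocytosis, degranulation and cytokine release. Tyrobp (DAP12) is a related adaptor for other receptors such as the TREM family, Fcgr2b carries an inhibitory motif that recruits the phosphatase SHIP1, and Fcgrt encodes FcRn, which protects IgG from breakdown and carries it across cell layers. Collagen-induced arthritis is a model in which antibodies to collagen take part in the disease.

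Of the 7 genes, 4 lie together on chromosome 1 in the mouse build GRCm38.p6: Fcgr2b (170960558 to 170976071), Fcgr4 (171018926 to 171029761), Fcgr3 (171051169 to 171065915) and Fcer1g (171229572 to 171234349), within 273.792 kb. Fcgr1 lies on chromosome 3 (96282909 to 96293969), and Tyrobp (30413782 to 30417582) and Fcgrt (45092993 to 45103822) lie on chromosome 7. Fcgr3 overlaps the microRNA gene Mir6546, which has a row of its own in the table. By the methods the authors kept primary alignments only, so a read that matches several of the related Fcgr genes could count for 1 of them, and their levels are uncertain to that extent.

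RefSeq start sites were at hand for 6 of the 7 genes. The 250 bases before the start were searched on both strands for 2 motifs of factors active in myeloid cells: GAGGAA, the core of the PU.1 site, and TTNNGNAA, a short form of the C/EBP site. No match overlapped another. The 4 sequences below are shown because they precede the activating receptors and the adaptor they share, with the matched bases in capitals, 5′ to 3′ on the strand of the gene. They are Fcgr1 at chr3:96293970-96294219 (minus strand), Fcgr3 at chr1:171059404-171059653 (minus strand), Fcgr4 at chr1:171018676-171018925 (plus strand) and Fcer1g at chr1:171234350-171234599 (minus strand). The window of Fcgr3 belongs to a start site inside the annotated extent of the gene, and a second listed start site has a window shifted by a few bases (chr1:171059395-171059644).
Fcgr1: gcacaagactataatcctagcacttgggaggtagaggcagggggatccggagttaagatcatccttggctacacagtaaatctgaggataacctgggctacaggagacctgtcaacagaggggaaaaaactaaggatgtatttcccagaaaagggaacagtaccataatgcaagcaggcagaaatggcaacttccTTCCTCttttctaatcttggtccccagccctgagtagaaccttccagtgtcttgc
Fcgr3: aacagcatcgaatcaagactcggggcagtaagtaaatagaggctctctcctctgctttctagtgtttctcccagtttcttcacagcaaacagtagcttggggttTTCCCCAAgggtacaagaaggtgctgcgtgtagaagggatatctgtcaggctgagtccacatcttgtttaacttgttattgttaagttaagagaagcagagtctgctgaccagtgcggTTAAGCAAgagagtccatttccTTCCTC
Fcgr4: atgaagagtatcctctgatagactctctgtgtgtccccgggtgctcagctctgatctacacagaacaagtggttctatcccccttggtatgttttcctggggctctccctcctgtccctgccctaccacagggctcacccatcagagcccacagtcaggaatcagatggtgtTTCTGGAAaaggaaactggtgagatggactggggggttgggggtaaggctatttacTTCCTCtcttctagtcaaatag
Fcer1g: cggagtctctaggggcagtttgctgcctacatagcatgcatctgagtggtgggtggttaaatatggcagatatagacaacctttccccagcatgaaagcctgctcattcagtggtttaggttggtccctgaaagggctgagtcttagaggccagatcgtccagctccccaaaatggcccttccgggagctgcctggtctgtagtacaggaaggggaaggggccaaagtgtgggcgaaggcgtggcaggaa
GAGGAA was found for 3 of 6 genes (Fcgr1, Fcgr3 and Fcgr4, each as TTCCTC on the strand printed and within 55 bases of the start), against 23.3% of all 32851 mouse promoters of this length. The C/EBP letters were found for Fcgr3, Fcgr4 and Fcgrt, 3 of 6, against 36.8% of all promoters. Neither motif was found in this window before Fcer1g or Fcgr2b. These matches describe letters and say nothing on binding.

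The ligands of these receptors are IgG heavy chains, of which Ighg1, Ighg2c and Ighg2b had the highest mean levels of their list. In lymph node all 3 were listed at 0 in the 4 healthy mice. In the CIA mice Ighg1 was at 57.3 UPM in S1, 0 in S2 and 334 in S7, Ighg2c was at 85.4 UPM in S1 and listed at 0 in the others, and Ighg2b was at 57.6 UPM in S1, 24.6 in S2 and 0 in S7. Of the 5 listed IgG and IgE heavy chains 1, Ighg1, passed the minimum mean of 25 UPM in lymph node, and it did so through the CIA mice alone. Its log2 difference was 2.62 with a standard error (SE) of 1.23, which did not pass the test (limma, adjusted p = 0.999). In the spleen, with 1 mouse per state, Ighg1 was at 12.9 UPM in H6 and 285 in S1, Ighg2c at 12.9 and 129, and Ighg2b at 26.7 and 72.7. Ighg3, the highest of these chains in the spleen of H6, went the other way, at 68.9 UPM in H6 and 46.6 in S1. In blood Ighg1 was listed at 0 in all 7 mice, and Ighg2b reached at most 8.61 UPM.

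Fcer1g, the gamma chain, was above 0 in 24 of 26 mouse and organ sums. Its median level over the mice of both states ran in the order lung (897 UPM, 2 mice), muscle (434), blood (417, 7 mice), joint (397), spleen (177), lymph node (36.6, 7 mice), thymus (5.82) and skin (3.28). The blood median was the value of a CIA mouse, S7. For the 4 healthy bloods it was 125 UPM, below the joint of H3 (255 UPM). The ranges of lung and muscle did not overlap, nor did those of spleen and lymph node, while every other pair of neighbours in this order overlapped. In the lung Fcer1g was at 879 UPM in H6 and 914 in S1. In the thymus it was at 3.17 and 8.46 UPM, and in the skin it was at 6.57 UPM in H6 and listed at 0 in S1.

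Tyrobp was the only one of the 7 genes above 0 in all 26 sums. Its median level, again over the mice of both states, ran in the order lung (703 UPM), joint (450), spleen (421), muscle (340), blood (179), lymph node (46.0), skin (14.1) and thymus (9.59). Lung and joint did not overlap, nor did spleen and muscle or lymph node and skin. In the lung Tyrobp was at 666 UPM in H6 and 741 in S1, and in the spleen at 459 and 383.

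Over the 26 sums Fcer1g and Tyrobp moved together, with Pearson's r = 0.923 of log2(UPM + 10) and Spearman's rho = 0.920. These are descriptions over sums that share mice and organs. The ratio of Fcer1g to Tyrobp was 1.32 and 1.23 in the lungs of H6 and S1 and 1.28 and 1.27 in their muscles. The spleens stood apart from each other, at 0.144 in H6 and 0.753 in S1, and healthy blood ran from 0.472 in H4 to 2.64 in H3. In the 3 CIA blood samples the ratio was 1.08 to 1.52, inside the range of the healthy ones.

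**Figure D1:**
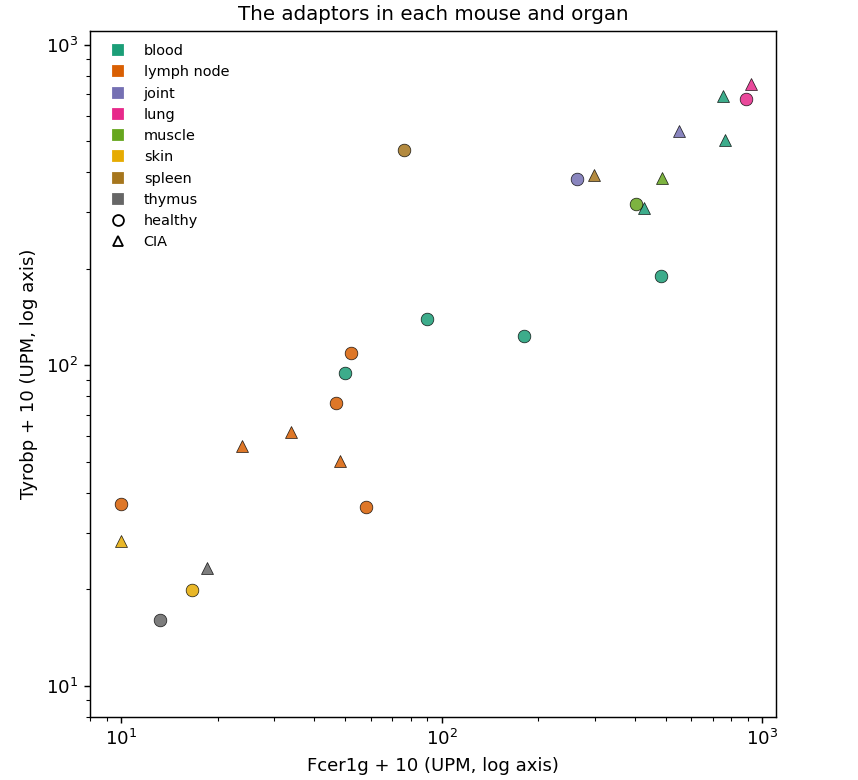
Level of Fcer1g (x axis) against Tyrobp (y axis) in each of the 26 mouse and organ sums, both as UPM + 10 on log axes; colour gives the organ and shape the state (circles healthy, triangles CIA). The sums of thymus, skin and lymph node lie low for both genes and those of lung high for both, and the spleen of H6 (66.3 UPM of Fcer1g, 459 UPM of Tyrobp) lies off the common trend.

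The IgG receptors themselves were listed at 0 in many sums. Fcgr3, the low-affinity activating receptor, was above 0 in 14 of 26 sums, at 97.5 and 111 UPM in muscle, 86.4 and 108 in joint, 21.5 and 21.6 in spleen, and 0 and 89.8 in lung (H6 or H3 before S1). It was listed at 0 in skin and thymus of both mice and in 6 of 7 lymph nodes, the exception being S1 at 16.1 UPM. Fcgr2b, the inhibitory receptor, was also above 0 in 14 sums, at 42.2 and 54.0 UPM in spleen, 53.4 and 27.7 in joint and 23.4 and 47.3 in muscle, and was listed at 0 in lung, skin and thymus of both mice.

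Fcgr1, the high-affinity receptor, and Fcgr4 were near the limit of the table. Fcgr1 was above 0 in 3 sums, at 26.4 UPM in the blood of S2, 22.2 in the spleen of S1 and 2.71 in the joint of S1. Fcgr4 was above 0 in 1 sum, the joint of S1, at 6.26 UPM. All of these were CIA samples, but they also all came from the 11 libraries in which rare genes had been kept, and both genes were listed at 0 in all 19 libraries without rare genes. Among the libraries with rare genes kept, none of the 6 healthy ones held signal for Fcgr1 and 3 of the 5 CIA ones did. These 3 came from S1 and S2 alone. Both states were represented in blood, spleen and skin, and in skin Fcgr1 was listed at 0 in both. The spleen library of S1 held 4633747 units against 1161398 in H6, while the blood library of S2 (1854324 units) was smaller than the kept one of H4 (4059739). The part of depth was not tested. For Fcgr4 in the joint, where rare genes were kept in S1 and not in H3, state and filtering cannot be told apart.

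Fcgrt, which encodes FcRn, was at 178 UPM in the lung of H6, 106 and 61.6 in the joints of H3 and S1, 92.2 in the muscle of S1 and 58.6 in the skin of H6, and in blood it was highest in H3 (59.8) and S7 (52.7). It was listed at 0 in the lung of S1, in both thymi and in 6 of 7 lymph nodes. Fcgrt was above 0 in 11 of 11 libraries with rare genes kept and in 5 of 19 without, and the part of this filter in its pattern was not tested. B2m, the light chain of FcRn, was above 0 in all 26 sums, from 612 UPM in the thymus of H6 to 3075 in the blood of S6.

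**Figure D2:**
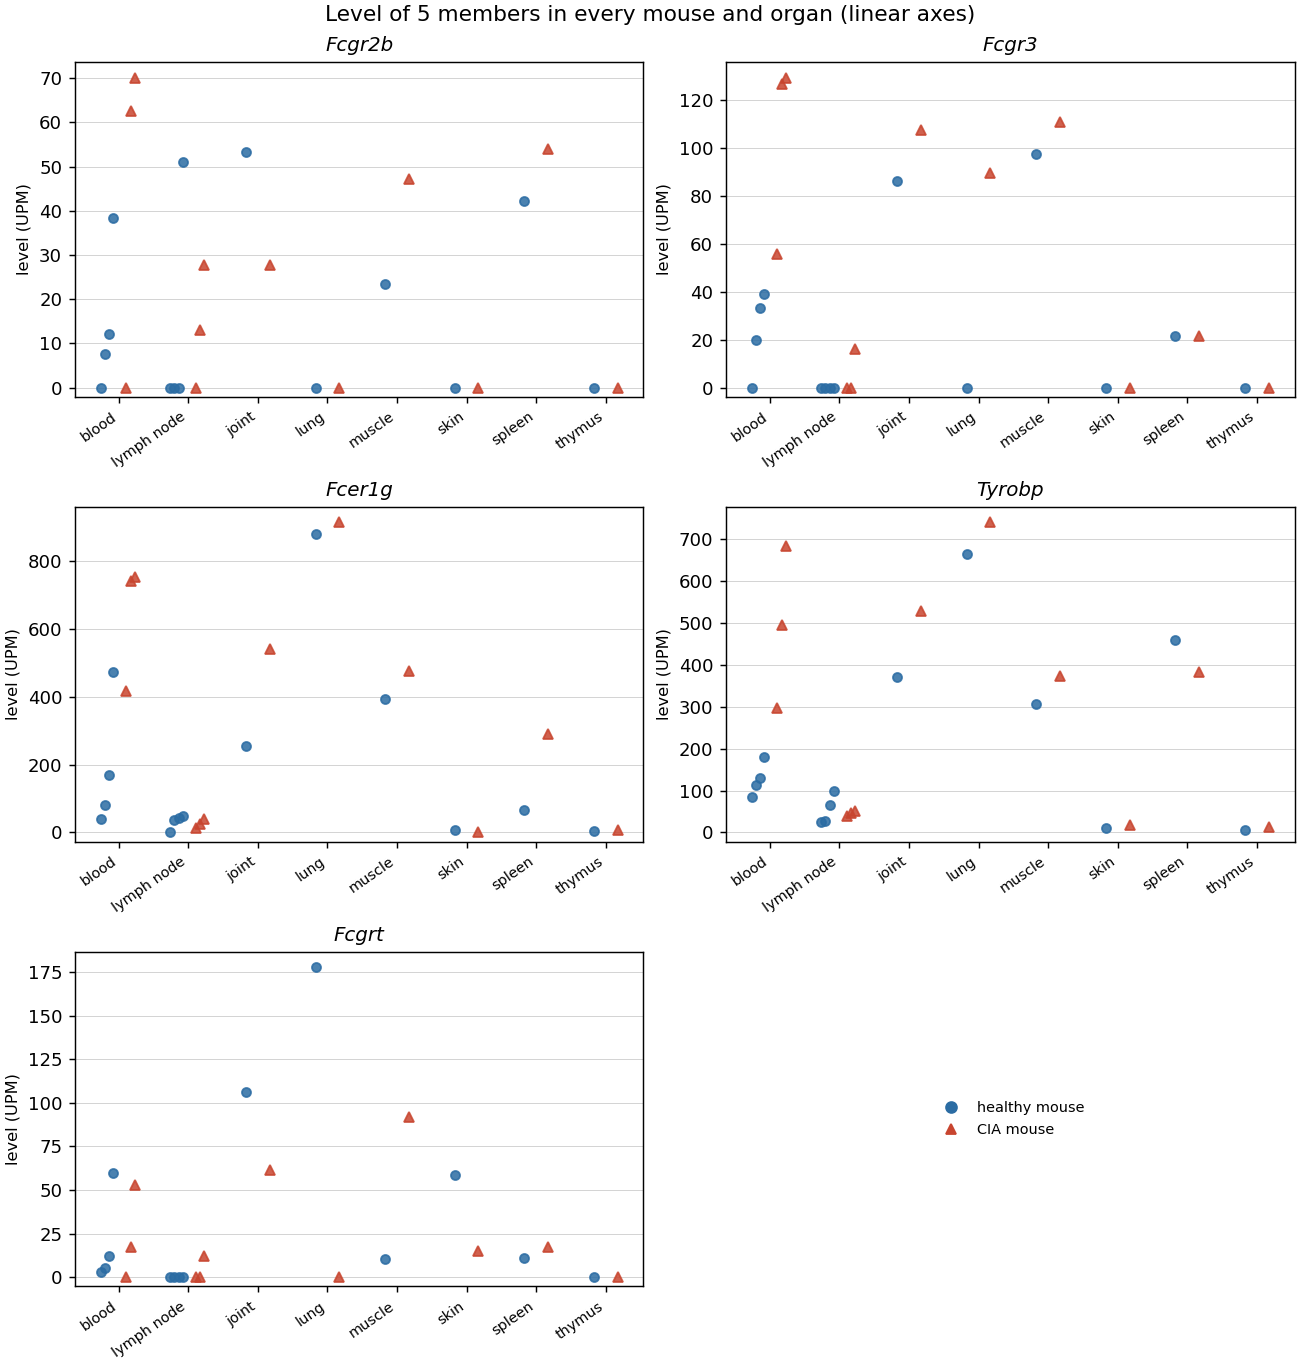
Level of 5 genes in UPM (y axes, linear, each with its own range) in every mouse, by organ (x axis); blue circles are healthy and red triangles CIA mice. Fcer1g and Tyrobp are high in lung, joint, muscle and CIA blood, as is Tyrobp in spleen, and low in lymph node, skin and thymus. Fcer1g in the healthy blood of H3 (474 UPM) lies above that in the CIA blood of S7 (417 UPM). Fcgr3 of the 3 CIA bloods (56.0 to 129 UPM) lies above that of the 4 healthy ones (0 to 38.9 UPM).

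Blood and lymph node had replicate mice in both states. In blood the mean levels of both adaptors and of Fcgr3 were higher in the CIA mice, by differences that did not pass the test across genes. The healthy levels of Fcer1g were 474 (H3), 40.0 (H4), 170 (H6) and 80.1 UPM (H7), and the CIA levels were 741 (S2), 752 (S6) and 417 UPM (S7). The groups overlapped, because H3 lay above S7. The means were 191 ± 196 UPM (SD, n = 4) and 636 ± 190 UPM (SD, n = 3).

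For Tyrobp the healthy levels were 179 (H3), 84.7 (H4), 113 (H6) and 129 UPM (H7), against CIA levels of 683 (S2), 495 (S6) and 298 UPM (S7). Every CIA mouse lay above every healthy mouse. The means were 127 ± 39.7 UPM (SD, n = 4) and 492 ± 193 UPM (SD, n = 3).

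Fcgr3 was listed at 0 in the blood of H3, and the other healthy levels were 19.9 (H4), 33.2 (H6) and 38.9 UPM (H7), against CIA levels of 129 (S2), 127 (S6) and 56.0 UPM (S7). The means were 23.0 ± 17.3 UPM (SD, n = 4) and 104 ± 41.7 UPM (SD, n = 3). These groups did not overlap either, but the value of 0 in H3 came from the smallest library, of 27 barcodes, and says little. Fcgr2b overlapped, with healthy levels of 0 (H3), 7.59 (H4), 12.2 (H6) and 38.3 UPM (H7) and CIA levels of 70.1 (S2), 0 (S6) and 62.6 UPM (S7), and the 2 CIA mice above 0 lay above all healthy ones.

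On the log2(UPM + 10) scale, which understates the change of low genes, the difference between CIA and healthy blood was 2.15 (SE 0.68) for Fcer1g, 1.85 (SE 0.59) for Tyrobp, 1.94 (SE 0.97) for Fcgr3 and 0.89 (SE 1.01) for Fcgr2b. The median of all 4416 genes tested was -0.10. With limma and Benjamini-Hochberg adjustment over all genes the adjusted p was 0.407 for Fcer1g, 0.428 for Tyrobp, 0.547 for Fcgr3 and 0.841 for Fcgr2b. None of the 4 members tested was called, against 16 genes called, 0.362% of those tested. Fcer1g and Tyrobp, 2 of 4 members, had an unadjusted limma p under 0.05, against 403 genes or 9.13% in either direction (3.01% higher and 6.11% lower). Tyrobp and Fcgr3 were 2 of 4 members higher without overlap, against 4.96% of all genes (6% were lower without overlap), and Fcgr2b and Fcgr3 passed the minimum mean through their CIA values.

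**Figure D3:**
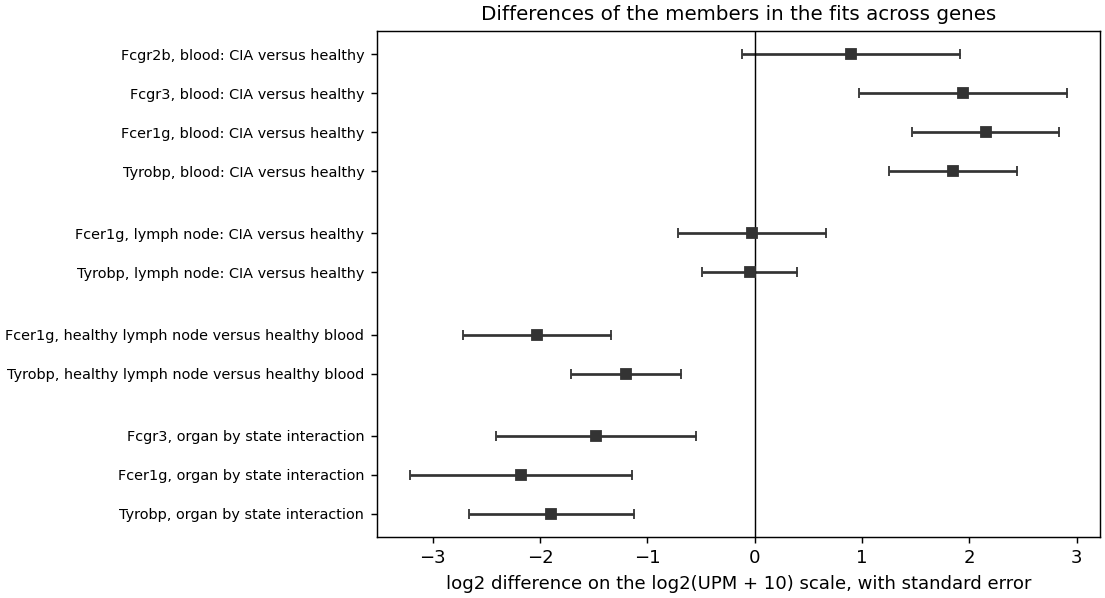
Log2 difference of each tested member on the log2(UPM + 10) scale (x axis), with bars of 1 standard error on either side, for the 4 comparisons fitted with limma; positive values are higher in CIA, or in lymph node for the organ comparison, and the last block is the difference between lymph node and blood in the CIA effect. The blood estimates of Fcgr3, Fcer1g and Tyrobp lie near 2 and those of lymph node near 0, and no member passed the adjusted threshold.

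The 3 members below the minimum mean in blood were tested alone with the exact two-sided permutation test, whose smallest possible p is 0.0286 here. Levels of Fcgrt were 59.8 (H3), 5.33 (H4), 2.81 (H6) and 11.99 UPM (H7) in healthy and 17.3 (S2), 0 (S6) and 52.7 UPM (S7) in CIA blood, which overlapped (exact p = 0.914). Fcgr1 was above 0 in S2 alone (exact p = 0.429), and Fcgr4 was listed at 0 in all 7 bloods.

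Several values stood beside the blood result. The summed level of 10 monocyte markers was 526 to 3067 UPM in healthy and 4630 to 14245 UPM in CIA blood without overlap, with all 10 above 0 in S2 and H4, and with Ly6c2, F13a1, Chil3, Ace, Cx3cr1 and Plac8 listed at 0 in H3. The 12 neutrophil markers summed to 1655 to 5434 UPM in healthy blood and to 5235 (S6), 63849 (S2) and 73981 UPM (S7) in CIA blood, although a density gradient removes most neutrophils. In S6 only 3 of 12 neutrophil markers were above 0 and Csf3r, Cxcr2 and Ly6g were listed at 0, while its Fcer1g was the highest of all bloods. Macrophage markers were low, at 0 to 44.5 UPM in healthy and 0 to 198 UPM in CIA blood, with C1qa, C1qb and C1qc listed at 0 in all 7. Markers of T cells summed to 550 to 1908 UPM in healthy and 237 to 596 UPM in CIA blood, which overlapped, and those of NK cells, which also use Fcer1g and Tyrobp, to 72.8 to 1067 and 0 to 722 UPM. The part of the makeup of cells in the differences of Fcer1g, Tyrobp and Fcgr3 was not tested.

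The title of each library ends in CIA or 2CIA, which the labels do not explain and which is treated as a library batch. All 3 CIA bloods carried 2CIA, as did H3 and 1 of 2 libraries of H4, and the healthy bloods of H6 and H7 did not. Among 2CIA libraries alone the differences were 1.63 for Fcer1g, 1.25 for Tyrobp and 3.43 for Fcgr3 (limma, adjusted p = 0.958 for each). Fcgr3 was listed at 0 in both healthy 2CIA bloods, so that its difference there could not be negative. The 2 libraries of H4 differed between themselves, at 74.6 (2CIA) and 33.0 UPM (CIA) for Fcer1g and at 203 and 60.8 UPM for Tyrobp. The blood of H3 held 27 barcodes with 7 distinct profiles. Without it the Fcer1g groups no longer overlapped, and the difference of Fcer1g was 2.74 (limma, adjusted p = 0.0800).

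In the lymph node the adaptors were low and differed by less than the spread between mice. Fcer1g levels were 36.6 (H3), 0 (H4), 48.0 (H6) and 42.2 UPM (H7) in healthy and 38.2 (S1), 13.7 (S2) and 23.9 UPM (S7) in CIA mice. Tyrobp levels were 65.9, 26.8, 26.1 and 99.3 UPM in the healthy mice in the same order and 40.2, 46.0 and 51.9 UPM in the CIA mice. For both genes the CIA values lay within the healthy range.

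The log2 difference in lymph node was -0.03 (SE 0.69) for Fcer1g and -0.05 (SE 0.44) for Tyrobp, with an adjusted p of 0.999 for each (limma). None of the 2 members tested was called, against 1 gene of 5081 or 0.0197%, and 0 of 2 had an unadjusted p under 0.05, against 3.96% of all genes (1.61% higher and 2.34% lower). Without overlap 0 of 2 were higher or lower, against 2.78% and 2.56% of all genes. The standard errors leave room for differences well away from 0 in either direction. Fcgr2b was above 0 in H7 (51.0 UPM), S1 (27.8) and S7 (13.1), with an exact permutation p of 0.657, and Fcgr3 and Fcgrt were each above 0 in 1 CIA mouse (S1 at 16.1 and S7 at 12.2 UPM, exact permutation p = 0.429 for each). Fcgr1 and Fcgr4 were listed at 0 in all 7 lymph nodes. Monocyte markers summed to 405 to 817 UPM in healthy and 749 to 1425 UPM in CIA lymph node, with Csf1r, F13a1, Chil3, Ace and Cx3cr1 listed at 0 in all 7.

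Between organs of the same 4 healthy mice, both adaptors were lower in lymph node than in blood on average, but neither passed the test. Both genes were lower in lymph node in each of the 4 mice, with a log2 difference of lymph node minus blood of -2.03 (SE 0.69) for Fcer1g and -1.20 (SE 0.51) for Tyrobp. The adjusted p was 0.134 and 0.212 (limma). For Fcer1g the difference was -3.23 with 2CIA libraries only and -1.58 without H3, and its adjusted p ran over the alternatives from 0.0512 to 0.682 (limma). None of the 2 members tested was called, against 0.0399% of 5015 genes, and both had an unadjusted p under 0.05, against 19% of all genes (2.57% lower, as these members were, and 16.5% higher). Without overlap 0 of 2 were higher or lower, against 5.96% and 1.54% of all genes. The median difference of all genes was 0.41, and it was 0.09 with trimmed-mean scaling. Fcgrt, above 0 in all 4 healthy bloods, was listed at 0 in all 4 lymph nodes (exact permutation p = 0.0286, the smallest that 4 against 4 allow). Both organs came from the same mice, and an exact permutation test within the 4 pairs, added after the data were seen, gave p = 0.125, the smallest it allows. All 4 of these lymph nodes, but not all of these bloods, were libraries without rare genes. For Fcgr3, listed at 0 in all 4 lymph nodes, the exact permutation p was 0.143, and 0.250 within pairs.

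An interaction term tested whether the response to CIA was of another size in lymph node than in blood. Its estimate was -2.18 (SE 1.04) for Fcer1g, -1.89 (SE 0.76) for Tyrobp and -1.48 (SE 0.93) for Fcgr3, that is, smaller in lymph node. The adjusted p was 0.624, 0.526 and 0.724 (limma). Fcgr3 passed the minimum mean in this fit only through CIA blood and was above 0 in 1 of 7 lymph nodes, which favours a negative estimate for it. With 2CIA libraries only the estimate was -0.79 for Fcer1g and -2.97 for Fcgr3, and without H3 it was -0.98 for Fcgr3. None of the 3 members tested was called, against 0 of 4810 genes (0%), and 2 of 3 had an unadjusted p under 0.05, against 7.82% of all genes (2.12% negative, as these members were, and 5.7% positive). The median of all genes was 0.29.

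In the organs with 1 mouse per state there is no replicate check, and the values compare 2 mice. The median log2 difference of all genes was -0.32 in joint, 0.07 in lung, 0.47 in muscle, -0.01 in skin, -0.22 in spleen and -0.02 in thymus. Of the 42 pairs of member and organ 18 had a mean of at least 25 UPM, and 6 of these differed by at least 1 on the log2 scale, 4 of them higher in S1. In the joint, the organ of the arthritis, Fcer1g was at 255 UPM in H3 and 539 in S1 (log2 difference 1.05), Tyrobp at 371 and 528 (0.50), Fcgr3 at 86.4 and 108 (0.29), Fcgr2b at 53.4 and 27.7 (-0.75), and Fcgrt at 106 and 61.6 (-0.70). Fcer1g was the only one of 5 members past 1 there, against 5.64% of all genes higher and 23.1% lower. The 2 joint libraries of S1 differed between themselves, at 555 and 326 UPM for Fcer1g and at 527 and 534 UPM for Tyrobp, so that the lower Fcer1g value was closer to H3 than to its own partner. Neutrophil markers summed to 62657 UPM in the joint of H3 and 131107 in that of S1, and monocyte markers to 5915 and 8029 UPM.

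In the lung Fcer1g and Tyrobp were at nearly the same level in both mice (log2 differences of 0.05 and 0.15), while Fcgr3 was listed at 0 in H6 and at 89.8 UPM in S1, and Fcgrt was at 178 UPM in H6 and listed at 0 in S1. Of 4 members 1 was higher and 1 lower, against 24.4% and 22.7% of all genes. Neutrophil markers summed to 496 UPM in the lung of H6 and 17530 in that of S1, and epithelial markers to 22153 and 2479 UPM. Macrophage markers summed to 2098 and 557 UPM, fibroblast markers to 207 and 0 UPM and endothelial markers to 147 and 0 UPM, so that these lists were lower in S1, as Fcgrt was, and their part in its difference was not tested. Rare genes were kept in H6 and not in S1.

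In the spleen Fcer1g was at 66.3 UPM in H6 and 289 in S1 (log2 difference 1.97, 1 of 3 members higher against 13.6% of all genes higher and 23.3% lower), while Tyrobp went the other way, at 459 and 383 UPM (-0.25). Neutrophil markers summed to 4446 and 98770 UPM and monocyte markers to 2695 and 6035 UPM in these spleens, both from libraries with rare genes kept.

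In the muscle Fcer1g (392 and 475 UPM), Tyrobp (307 and 373) and Fcgr3 (97.5 and 111) differed little, and Fcgrt was at 10.2 and 92.2 UPM (log2 difference 2.34, 1 of 5 members higher against 37.5% of all genes higher and 18.1% lower). Rare genes were kept in S1 and not in H6. Fibroblast markers summed to 496 and 12050 UPM, macrophage markers to 48.3 and 1120 UPM and endothelial markers to 128 and 619 UPM in these muscles. Neutrophil markers, among others, went the other way, at 106621 and 18687 UPM. The part of these in the difference of Fcgrt was not tested. The study's supplement on organ preparation lists lysis of red cells for the muscle of H6 and not for that of S1. In the skin Fcgrt was at 58.6 UPM in H6 and 14.8 in S1 (-1.47, 1 of 1 lower against 12.8% lower and 12.3% higher). Fibroblast markers summed there to 4390 and 16992 UPM, keratinocyte markers to 4771 and 1973 UPM and endothelial markers to 125 and 21.8 UPM. Their part in the difference of Fcgrt was not tested. In the thymus no member reached the mean of 25 UPM, so none stands beside the 10.4% of genes higher and 6.61% lower.

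The members were set beside marker genes of 16 cell types over the 26 sums, as a description without a test. Fcer1g and Tyrobp moved most with the 10 monocyte markers (Pearson's r = 0.923 and 0.918 of log2(UPM + 10)), and Fcgr3 with the 12 neutrophil markers (r = 0.825). The monocyte list holds Lyz2, with a mean of 3615 UPM over the 26 sums, which alone had r = 0.932 and 0.942 with the adaptors. The highest monocyte sum, 21983 UPM in the lung of H6, stood with Ly6c2, F13a1 and Cx3cr1 listed at 0. The values with this list are therefore not particular to monocytes. Fcgrt had its highest positive value with the 7 fibroblast markers (r = 0.643) and was negative with T cell markers (r = -0.668). The points share mice, organs and libraries. Fcgrt was above 0 in 11 of 11 libraries with rare genes kept and in 5 of 19 without. The latter include all lymph node and thymus libraries, and the part of this filter in the correlations of Fcgrt, here and below, was not tested. Whether the makeup of cells set these levels was not tested.

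**Figure D4:**
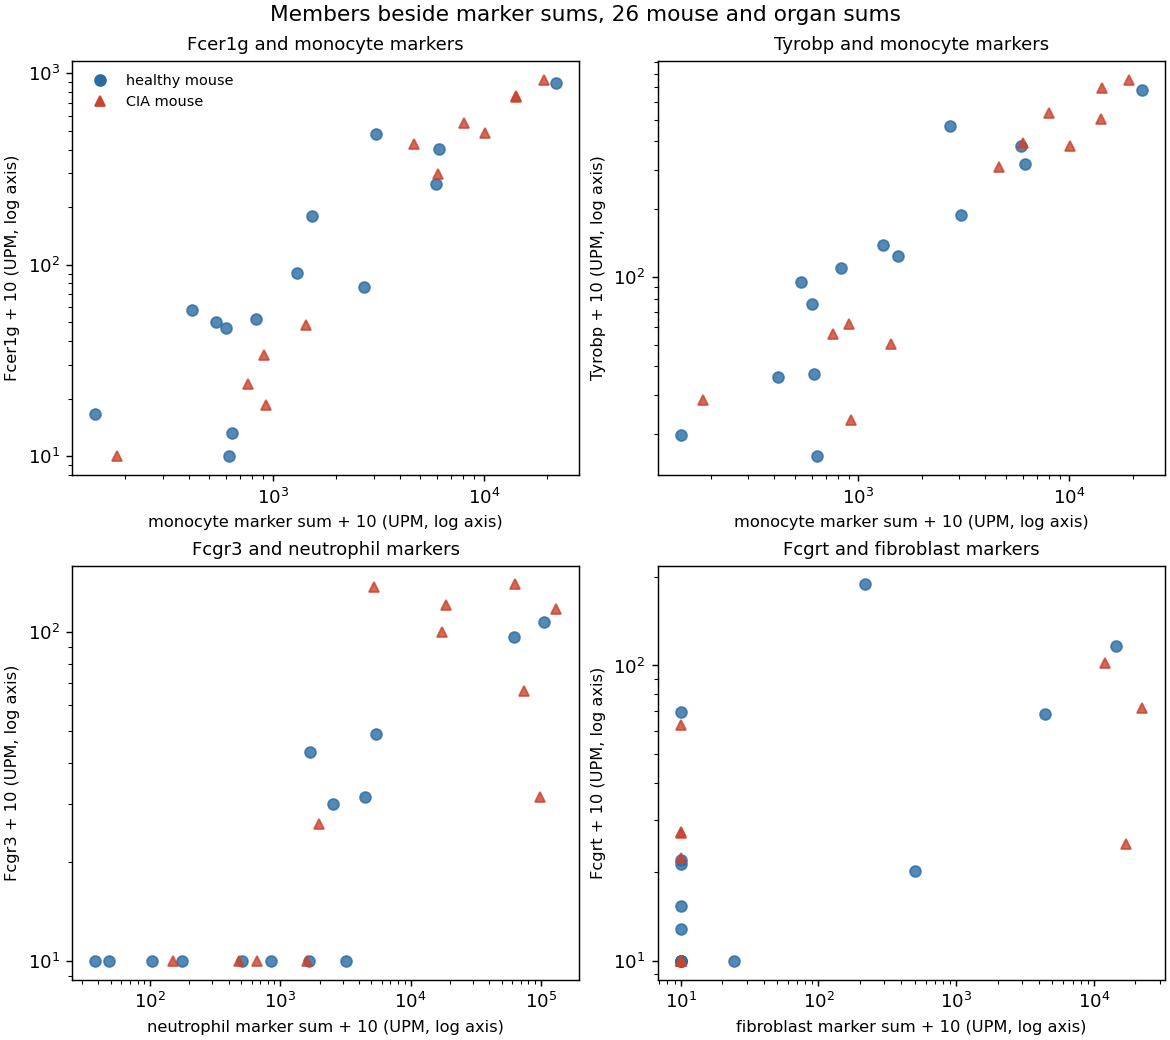
Level of a member (y axis) against the summed level of the markers of a cell type (x axis), both as UPM + 10 on log axes, in the 26 mouse and organ sums; blue circles are healthy and red triangles CIA mice, and a value listed at 0 lies at 10. Fcer1g and Tyrobp rise with monocyte markers, Lyz2 among them, in both states (r = 0.923 and 0.918). Every sum with Fcgr3 above 0 has at least 1689 UPM of neutrophil markers, a level that the lymph node of H7 (3175 UPM) also passes with Fcgr3 at 0.

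Within libraries the correlations were computed across barcode profiles, taking each distinct profile once and libraries with at least 20 of them in which at least 20% were above 0. The correlation of Fcer1g with monocyte markers, Lyz2 among them, was above 0 in 18 of 19 libraries, with a median r of 0.555. It reached 0.868 in the larger joint library of S1 (248 distinct profiles) and 0.942 in the blood of S6 (only 22 distinct profiles). Fcer1g correlated with Tyrobp with a median r of 0.420 (17 of 19 libraries above 0) and with B cell markers with a median r of -0.307. For Fcgr3 the correlation was above 0 with monocyte markers in 7 of 7 libraries (median r = 0.686) and with neutrophil markers in 5 of 7 (median r = 0.653), while over the sums the value with neutrophil markers was the higher one. For Fcgrt there were 3 libraries, in which the median r was 0.430 with endothelial, 0.379 with dendritic cell and 0.268 with fibroblast markers, the last 2 each above 0 in 2 of 3. Fcgr2b, which B cells also use, correlated with B cell markers at -0.199 to 0.407 over 8 libraries, 4 of them above 0 (median r = -0.0048), and with monocyte markers at -0.330 to 0.568, 7 of 8 above 0 (median r = 0.163). Smoothing pools reads of similar barcodes, and its part in these correlations was not tested.

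The genes most like each member over the 26 sums, among 5413 compared and with the members themselves left out, were as follows. Fcer1g went with Lyz2 (lysozyme of myeloid cells, also on the monocyte marker list, r = 0.932), Spi1 (the gene of PU.1, r = 0.925) and Skap2 (r = 0.911). Tyrobp went with Lyz2 (r = 0.942), Skap2 (r = 0.938) and Plek (r = 0.922). Fcgr3 went with Trem3, itself a receptor that pairs with Tyrobp (r = 0.861), S100a8 (r = 0.833) and Rab31 (r = 0.819). Fcgrt went less closely with any gene, the nearest being Sparcl1 (r = 0.770), Cd9-ps (r = 0.766), whose name marks a pseudogene and whose reads may belong to a related gene, and complement C3 (r = 0.763).

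Receptors that signal through these adaptors were read from lists. Of the 8 receptors listed as partners of Fcer1g 3 were tested in blood, 0 were called with limma, 1 had an unadjusted p under 0.05, beside 0.362% called and 9.13% unadjusted of all genes, and their median log2 difference was 0.94 beside -0.10 for all genes. With so few genes tested these counts say little about the list. Clec4e and Lilra6 passed the minimum mean only through the CIA mice (healthy means of 3.77 and 12.4 UPM), which favours a positive median. The C-type lectins Clec4d and Clec4e had their highest levels in the lung of S1, at 1046 and 933 UPM, against 846 and 69.1 UPM in the lung of H6. In CIA blood Clec4e was at 163 (S2), 0 (S6) and 87.3 UPM (S7), and in healthy blood at 15.1 UPM in H7 and listed at 0 in the others (log2 difference 2.13, SE 1.01, limma adjusted p = 0.538). Both lectins were listed at 0 in all 7 lymph nodes. Clec4d in blood differed by 0.94 (SE 1.10), and Lilra6, a leukocyte immunoglobulin-like receptor, by 0.93 (SE 1.00).

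Of the 16 receptors listed as partners of Tyrobp 7 were tested in blood, 0 were called and 1 had an unadjusted p under 0.05, near the 9.13% of all genes, and the median difference was 1.12. That 1 was Trem3, with healthy levels of 0 (H3), 5.33 (H4), 9.83 (H6) and 0 UPM (H7) and CIA levels of 168 (S2), 95.2 (S6) and 147 UPM (S7). It passed the minimum mean only through the CIA mice, so the lack of overlap between its groups follows in part from that choice, and its difference of 3.44 (SE 0.96) had an adjusted p of 0.239 (limma). Trem1, which amplifies inflammation in neutrophils and monocytes, was at 206 and 155 UPM in S2 and S7, listed at 0 in S6 and at 0 to 23.2 UPM in healthy blood (2.20, SE 1.10, limma adjusted p = 0.547), and it too passed the minimum mean only through the CIA mice, which favours a positive median. Both Trem genes were listed at 0 in all lymph nodes. Klrk1, the receptor NKG2D, was at 334 UPM in the blood of S6 and at 0 to 59.8 UPM in the other 6 bloods.

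Of 22 listed activating signalling genes 16 were tested in blood and 16 in lymph node, with 0 called in each (limma), 3 and 2 at an unadjusted p under 0.05, and medians of -0.41 and 0.01. Over all genes 0.362% and 0.0197% were called and 9.13% and 3.96% had an unadjusted p under 0.05, so that 0 of 16 says nothing particular about these genes. Bcl10, which links immune receptors to NF-kB, differed by -0.42 (SE 0.96) in blood. Rac2, a GTPase of blood cells, and Hcst (DAP10), the adaptor of NKG2D, were higher in lymph node than in blood of healthy mice by 0.80 (SE 0.41) and 1.29 (SE 0.46), with limma adjusted p of 0.283 and 0.144, in the opposite direction to Fcer1g and Tyrobp. The median of all genes in that comparison was 0.41, and 16.5% of all genes were higher at an unadjusted limma p under 0.05. Of 16 listed inhibitory signalling genes 9 were tested in blood with 0 called, 1 at an unadjusted p under 0.05, near the 9.13% of all genes, and a median of 0.30. Clec4a2, an inhibitory lectin of myeloid cells, was at 80.4 (S2), 0 (S6) and 117 UPM (S7) in CIA and at 0 to 28.6 UPM in healthy blood (1.44, SE 1.04, limma adjusted p = 0.684), and it passed the minimum mean only through the CIA mice. Ptpn6, the phosphatase SHP-1, differed by 0.30 (SE 0.78), and Csk, a kinase that restrains Src family kinases, by -0.24 (SE 1.14).

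Among the other Fc receptors, Fcer2a (CD23), Fcrla and Fcmr are genes of B cells, and they pointed the other way in blood. Fcer2a was on average at 184 ± 96.7 UPM (SD, n = 4) in healthy and 54.1 ± 59.1 UPM (SD, n = 3) in CIA blood (log2 difference -2.04, SE 0.90), Fcrla at 114 ± 44.6 and 17.1 ± 29.6 UPM (-2.67, SE 0.98), and Fcmr at 66.2 ± 50.5 and 3.95 ± 6.85 UPM (-2.06, SE 1.04). Fcrla and Fcmr passed the minimum mean only through the healthy mice, which favours a negative median of the list. Of 12 listed receptors 4 were tested, 0 were called (limma, adjusted p = 0.538 for Fcer2a, 0.503 for Fcrla and 0.554 for Fcmr), 2 had an unadjusted p under 0.05 (6.11% of all genes were lower by this measure), and the median was -2.05. The 10 B cell markers summed to 1913 to 8167 UPM in healthy and 781 to 4320 UPM in CIA blood, which overlapped, and their part in these values was not tested. B2m was at 1124 ± 273 UPM (SD, n = 4) in healthy and 2220 ± 745 UPM (SD, n = 3) in CIA blood, without overlap, with a difference of 0.95 (SE 0.46, limma adjusted p = 0.538).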

How the data were processed

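Seq-Well libraries of 8 organs from 8 mice were analysed from 1 table of 8282 barcode columns. By the methods the authors aligned reads with STAR to GRCm38, counted molecules with the Drop-seq tools and smoothed each library over neighbours (k = 12); the submitters' processing notes list mm9 and GRCh38 without a role. The deposited values therefore are a signal, whole-number sums over a barcode and its neighbours, in which 4590 profiles were distinct and 13 barcode sequences occurred in more than 1 library. No count model, counting interval or detection limit was used.

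Units were summed per mouse and organ (26 sums) and scaled to 1000000 units (UPM). In each comparison, genes averaging 25 UPM or more were fitted as log2(UPM + 10) with limma 3.58.1 in R 4.3.3 (moderated, mean-variance trend, two-sided, Benjamini-Hochberg, threshold 0.05), with mice as replicates. Members below the minimum were tested by exact permutation, and between organs also within pairs of the same mouse. The fit was tested on simulated data. Organs with 1 mouse per state got values only. The same 4 healthy mice gave blood and lymph node, so their numbers pair the samples by animal; deviations of a mouse in the 2 organs correlated at -0.17 to 0.16, and the fit with the mouse as a block was an alternative. Other alternatives were 3 scalings, a pseudocount of 1, no filter, no trend, distinct profiles, libraries as samples, the title suffix, and each mouse left out.

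The members, lists and tests were chosen with earlier results of these data known. All members are named, with the 3 highest genes of each list (genes called would have come first, but none was) and the 3 genes most correlated with each member of at least 25 UPM. Some listed genes had no row in the table (Ighe, Fcrlb, Gp6, Sirpb1c, Siglec15, Itgam, Lilrb4a). Promoters are from RefSeq (GRCm38.p6). The result of 1 further motif search is not reported here. Figures were drawn with matplotlib 3.10.9.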

Additional observations from a re-analysis of the deposited data

Results flagged for a closer look

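In 2 of 8 groups of 4 healthy mice with any signal of a member, 1 mouse stood far from the others, judged by its gap to the nearest one relative to the range of the group. For values without ties about 1 in 20 groups would be marked so by chance, but where a single mouse is above 0 its gap always equals the whole range, so the rate for such groups is not known. Fcgrt was at 59.8 UPM in the blood of H3, against 2.81 to 11.99 UPM in the other 3 mice, and that library held 27 barcodes with 7 distinct profiles. Its signal there lay in 13 barcodes, and Klrk1, Bcl10 and Ptpn6 stood at the same 59.8 UPM in that blood. After smoothing such a value may rest on very few molecules. Fcgr2b was at 51.0 UPM in the lymph node of H7 and listed at 0 in the other 3.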

How the results depend on the processing

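Depth limits the low members: 217494 units in the smallest library make 1 unit worth several UPM. Smoothing repeats a molecule over neighbouring barcodes, so 1 molecule there can count for more than 1 unit, and a value of 0 says little. Filtering of rare genes, as read from the values, also differed between libraries. No member passed the adjusted threshold under any alternative (163 values kept their direction and 12 changed sign). For Fcer1g, Tyrobp and Fcgr3 in blood the log2 difference ran over the alternatives from 1.61 to 2.74, from 1.25 to 2.16 and from 1.36 to 3.43, with adjusted p of 0.0800 to 0.958, 0.260 to 0.958 and 0.263 to 0.958 (limma). For Fcgr2b, in the 13 alternatives that tested it, it ran from 0.54 (without H3) to 1.95 (2CIA libraries only), and was 1.87 without S6, with adjusted p of 0.673 to 0.972 (limma). Trimmed-mean scaling moved the median of all genes in blood from -0.10 to -0.63.

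The 12 values that changed sign were all in lymph node, where the differences were near 0. Fcer1g became 0.0069 with trimmed-mean scaling, 0.53 with a pseudocount of 1 and 0.84 with 2CIA libraries only, and ran from -0.62 to 0.23 with 1 mouse left out; Tyrobp became 0.0767 with distinct profiles and 0.22 with libraries as samples, and ran from -0.2714 to 0.2619 with 1 mouse left out.

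The counts of all genes called moved more. In blood 16 became 4 with trimmed-mean scaling, 9 without globin genes, 3 with a pseudocount of 1, 0 without the trend, 8 with the suffix as covariate, and 0 (without S2, 775 genes at an unadjusted p under 0.05) to 21 with 1 mouse left out. In lymph node 1 became 9 without a filter, 0 without the trend, 3 with 2CIA only, and 1 to 7 (without H3) with 1 mouse left out. For healthy lymph node against blood 2 became 0 with a pseudocount of 1, without the trend or with 2CIA only, 92 with distinct profiles, 447 with libraries as samples, and 0 to 283 (without H6) with 1 mouse left out. With the replicate block for the paired mice 2 became 0 (934 genes at an unadjusted p under 0.05), Fcer1g there having an adjusted p of 0.120 (limma), and the block changed no call of a member in the fits. For Fcgrt, tested alone, the exact permutation p of 0.0286 became 0.125 within pairs, a test added after the data were seen. The interaction ran from -2.62 to -0.79 for Fcer1g, from -2.28 to -1.58 for Tyrobp and, where tested, from -2.97 to -0.98 for Fcgr3, and had 0 to 3 (without S6) calls with 1 mouse left out. In organs with 1 mouse per state, 7 of 42 pairs differed by at least 1 on the log2 scale, 13 with distinct profiles and 12 with a pseudocount of 1. The cause was not tested for any of these.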
